A study of Caenorhabditis elegans with 16 samples.

Results

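The genes described here are the 5 GABA receptor genes unc-49, exp-1, gab-1, gbb-1 and gbb-2 of the nematode Caenorhabditis elegans. They were taken by name from a table of 18570 genes (unc-49 is WBGene00006784, exp-1 WBGene00001373, gab-1 WBGene00001512, gbb-1 WBGene00021528 and gbb-2 WBGene00022675). Their level was measured in the annotated classes of neurons and of muscle and other mesoderm of the larva, 106931 of the 151415 cells. The mesoderm cells include 5847 coelomocytes, which are not muscle. A level is given in CPM, the unique molecular identifiers (UMIs, one per captured transcript) of a gene divided by all UMIs of the class and scaled to 1000000. Counts come from transcript ends and are not scaled by gene length, so levels are compared between classes and not between genes.

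GABA is made by the decarboxylase UNC-25 and packed into vesicles by the transporter UNC-47 in a small set of neurons, among them the DD and VD motor neurons of the ventral cord and the RME neurons of the head. UNC-49 is the chloride channel through which GABA relaxes body wall muscle, whereas EXP-1 is a cation channel through which GABA excites the enteric muscles during defecation. GAB-1 is a further subunit of the ligand-gated channel family. GBB-1 and GBB-2 are the subunits of the G protein-coupled GABA-B receptor, known for lowering acetylcholine release from cholinergic motor neurons.

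The 16 libraries were droplet-based single-cell transcriptomes of fluorescence-sorted cells from hermaphrodite larvae of the first stage, and fell into 13 groups. All groups were labelled wild type apart from their transgenes. The group named for command interneurons (12 to 16 h after hatching) carried glr-1::GFP with sra-11p::Scarlet and inx-6p18::tagRFP. The sensory group (14 to 16 h) carried Ptax-4::GFP and Pocr-2::GFP, and the pan-neuronal group (11.5 to 14.5 h, 2 libraries) a nuclear tagRFP under rab-3(prom-1). The unc-86 group (12 to 15 h) carried unc-86::myr-GFP and odr-1::RFP, and the eat-4 group (12 to 15 h) eat-4::mCherry with rol-6(su1006). A pool of 2 strains, one with ceh-34p::HIS-24::mCherry, F25B3.3::GFP, unc-119(+) and dpy-20(+) and one with unc-4c::GFP and unc-4::mCherry (14 to 17 h), gave 1 library of live cells and 1 of cells fixed in methanol after the sort. A pool of 4 strains (13.5 to 17 h) carried nlp-13::GFP, unc-47::GFP, ceh-10::GFP and mec-3::RFP, with lin-15(+) in the first 3 and the lin-15B&lin-15A(n765) allele in the second. A pool of 3 strains (13 to 17 h) carried acr-2::GFP with lin-15(+), unc-4c::GFP with ceh-22::GFP, and ceh-2::GFP with unc-119(+) in an unc-119(ed4) background. The P-lineage groups carried odr-1::gfp together with phlh-3::nls::tdTomato and phlh-3::vab-10abd::venus and were taken at 11 to 14 h, 15.5 to 18.5 h and 21 to 24 h (2 libraries, also labelled second stage). The flp-7 group (14 to 17 h, 2 libraries) carried flp-7p::GFP. A class is therefore seen mainly in the sorts whose reporter it expresses, and cells of a pooled sort cannot be traced to a strain.

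Libraries held between 3121 and 17326 cells, between 1798814 and 50689801 UMIs, and a median of 227 to 3949 UMIs per cell. Of 148627 barcodes, 2756 occurred in at least 2 libraries (5544 cells). The 11 to 14 h P-lineage library held only 128 named neurons among its 11177 cells, and exp-1 was listed at 0 throughout it. The annotated classes were set beside fixed lists of markers. Myosin heavy chain myo-3 stood at 1499 CPM in body wall muscle and at 1.85 CPM over all neurons, and a summed list of 8 neuronal genes at 179 CPM in body wall muscle and 14261 CPM in neurons. The muscle myosin unc-54 did not separate the tissues, with 3868 CPM in body wall muscle and 40089 CPM in neurons, and its part in the CPM of sorted neurons was not tested. The GABAergic cord motor neurons held 26321 CPM of unc-25, and the cholinergic ones 2103 CPM of unc-3, which encodes their identity factor. The cholinergic list (unc-17, cha-1 and cho-1) summed to 721 CPM in the cholinergic and 21.4 CPM in the GABAergic cord neurons. In the cholinergic class AS it summed to only 233 CPM, beside 247 CPM of the GABAergic list (unc-25, unc-47 and unc-46). The source of these GABAergic UMIs in AS was not tested.

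All 5 genes were mainly neuronal or shared between neurons and muscle. Over all neurons unc-49 stood at 187 CPM, exp-1 at 5.80, gab-1 at 90.7, gbb-1 at 75.6 and gbb-2 at 126 CPM. In cells expected to lack them the levels were lower but not always 0, which sets a background. unc-49 stood at 6.52 CPM in the intestine, 7.60 in coelomocytes and 0.517 in excretory cells, and the other 4 genes at no more than 1.40 CPM in these 3 tissues. Some other tissues outside neurons and muscle were higher, with unc-49 at 60.1 CPM in rectal cells and 24.4 CPM in glia. In glia gab-1 stood at 6.16, gbb-1 at 7.83 and gbb-2 at 9.63 CPM. The background of the first 3 tissues is therefore not an upper limit, and the source of the higher levels was not tested. Among 114 neuron classes with at least 50 cells, no UMI was counted in 12 classes for unc-49, 65 for exp-1, 37 for gab-1, 12 for gbb-1 and 15 for gbb-2. The genes differed in how their counted UMIs were spread. The 10 highest classes held 29.7% of the neuronal UMIs of unc-49 and 42.3% of those of gbb-1, but 75.0% for gbb-2, 77.3% for exp-1 and 84.3% for gab-1. These are shares of summed UMIs, so classes with many or deep cells weigh more. AS alone gave 5806 of the 10267 gbb-2 UMIs.

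**Figure D1:**
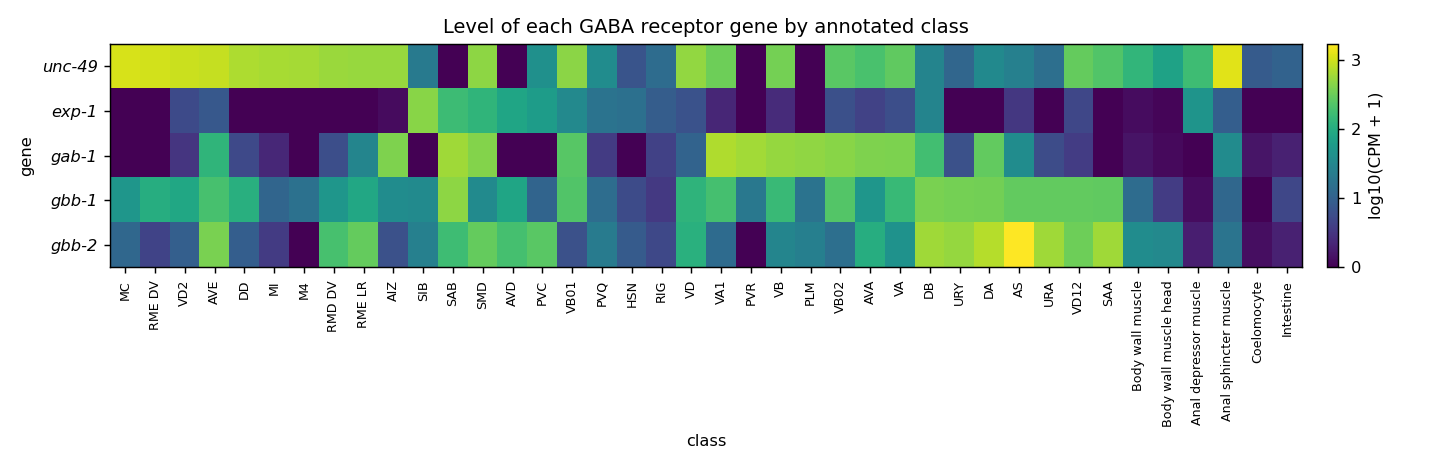
Level of each gene, as log10(CPM + 1) on the colour scale, in the 10 highest neuron classes of each gene, the 4 muscle classes, coelomocytes and intestine. gab-1 is near 0 in body wall muscle and in DD, gbb-2 is highest in AS, and exp-1 is above background in few columns.

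unc-49, the muscle GABA receptor, was detected in all 4 body muscle classes. Body wall muscle outside the head held 134 CPM (2479 UMIs in 5552 cells, exact 95% Poisson interval 129 to 140) and head body wall muscle 72.4 CPM (1355 UMIs in 5185 cells). Anal depressor muscle held 167 CPM and anal sphincter muscle 1222 CPM. These intervals cover counting error only. Over the 14 libraries with at least 20 cells, body wall muscle outside the head ranged from 85.9 to 260 CPM with a median of 165. No library was without unc-49 in this class. The sphincter value rests mainly on 163 cells of the pool with acr-2::GFP, where it was 1200 CPM. In the sphincter cells the summed neuronal markers stood at 2754 CPM against 725 CPM in the depressor cells, all 8 of them above 0, and their part in the sphincter level was not tested. The motor neuron factor unc-3 was also present there, at 96.6 CPM, beside myo-3 at 684 CPM.

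The 10 neuron classes highest in unc-49 spanned the pharynx, the head and the cord. The pharyngeal neuron MC led with 1087 CPM (380 to 1947 in 5 libraries), followed by the dorsal and ventral RME neurons with 1041 CPM (545 to 1389 in 5 libraries). The cord neuron VD2 held 952 CPM, the command interneuron AVE 887 CPM and the DD motor neurons 691 CPM. The pharyngeal neurons MI (640 CPM) and M4 (634 CPM), RMD DV (559 CPM), RME LR (544 CPM) and the interneuron AIZ (543 CPM) completed the list. The MI level ranged from 223 to 1303 CPM over 5 libraries, and 310 of its 489 UMIs came from the fixed library. Without that library MI stood at 340 CPM, and 8 of the 10 highest classes remained on the list. MC stood at 543 CPM when only cells with at least 500 UMIs were kept. Each neighbour in this order overlapped the next, both in counting interval and in library range, so the order itself is not resolved. Of the highest 10, RME DV, RME LR, VD2 and DD are GABAergic. The GABAergic classes were not uniformly high, since AVL held 3 UMIs (8.91 CPM) and RIS 1 UMI, and VD13 held 50.2 CPM.

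exp-1, the excitatory receptor, was sparse, with 474 UMIs in all neurons. The cholinergic head neuron SIB led with 458 CPM (93 UMIs), at 62.3, 238, 327 and 894 CPM in its 4 libraries. SAB, cholinergic motor neurons of the head, held 163 CPM in essentially 1 library. The head motor neuron SMD held 131 CPM, with 35.6 to 348 CPM in 7 libraries. All 4 SIB libraries and all 7 SMD libraries held exp-1 UMIs. The counting interval of SIB (370 to 561 CPM) lay above that of SAB (103 to 244 CPM), while their library ranges overlapped. AVD (5 UMIs), PVC (6 UMIs) and VB01 (18 UMIs) came next with 79.0, 61.1 and 32.3 CPM. PVQ, HSN, RIG and VD, the rest of the highest 10, were at 15.8, 14.8, 8.02 and 5.62 CPM. No exp-1 UMI was found in 271 AVL cells, where 3 UMIs would be 8.91 CPM and the exact 95% interval reaches 11.0 CPM. AVL, with DVB, is the GABAergic neuron that acts on the enteric muscles through EXP-1.

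In muscle, exp-1 separated the anal depressor from the rest. Depressor muscle held 46.3 CPM (157 UMIs), with 113 CPM in the fixed and 35.9 CPM in the live library of the ceh-34 and unc-4 pool. Sphincter muscle held 3 UMIs (8.28 CPM), and all body wall muscle held 7 UMIs in 10737 cells (0.188 CPM). The ratio of depressor to body wall muscle was 246 (95% counting interval 117 to 622). exp-1 shares 41 bases at its end with abts-3 on the opposite strand in the WBcel235 annotation, and whether counting used strand is not given in the sources used here. abts-3 stood at 345 CPM in SIB, 163 in SAB and 325 in SMD, but at 5.90 CPM in depressor muscle. Reads shared between these genes in the head neurons were not tested.

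gab-1 was concentrated in few classes, of which 4 of the highest 10 were cholinergic cord motor neurons. VA1, the most anterior VA neuron, led with 701 CPM, and VB (528 CPM), VB02 (453 CPM) and VA (398 CPM) were among the highest 10. The VB level was steady across libraries, at 488, 496, 538 and 539 CPM. VA1 varied from 43.7 CPM in the 11 to 14 h library to 1056 CPM in the pool with acr-2::GFP. Outside the cord, the tail interneuron PVR held 606 CPM, SAB 594, the touch neuron PLM 500, SMD 433, AIZ 410 and the command interneuron AVA 401 CPM. Apart from VA and the next class, ALM at 307 CPM, neighbouring counting intervals overlapped. Other cholinergic cord classes with at least 50 cells were lower. DA held 282 CPM, VB01 246 CPM and DB 179 CPM (13 UMIs). AS held 36.9 CPM and VC 3.95 CPM (10 UMIs in 2207 cells). DD held 1 UMI (4.14 CPM), VD 9.74 CPM and body wall muscle 0.487 CPM. AIZ differed between sorts, with 17.1 and 24.2 CPM in the pan-neuronal libraries against 123 to 601 CPM in the other 6.

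The UMIs of gbb-1 were less concentrated in its highest neuron classes than those of gbb-2, although for each gene 27 classes had a counting interval above 50 CPM. SAB led with 488 CPM, followed by DB (385), the sensory neuron URY (361), DA (355), AS (290), URA (287), VD12 (285), SAA (275), VB02 (230) and VB01 (225 CPM). All neighbours in this order overlapped in counting interval. Both cholinergic and GABAergic cord neurons were in the list, and no cord motor neuron class with at least 50 cells was at 0. Body wall muscle outside the head held 12.7 CPM and head muscle 2.72 CPM. Only 1 UMI was found in 826 depressor cells.

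Pooled over libraries, gbb-2 was highest in AS, cholinergic motor neurons of the cord that contact dorsal muscle. AS held 1716 CPM (5806 UMIs in 2271 cells, interval 1672 to 1761), against 748 CPM in DA, the next class with at least 50 cells. In the 7 libraries with at least 20 AS cells the level was 315, 367, 636, 926, 1610, 1893 and 2165 CPM (mean 1130 ± 755, SD). The 3 lowest AS libraries were below the single DA library at 797 CPM, so the ranges overlapped. In the pool with acr-2::GFP, which alone held at least 20 cells of AS, DA and DB, the values stood in reverse order, with 797 CPM in DA, 616 in DB and 315 in AS. The AS value there rests on few UMIs, since AS held 5800 gbb-2 UMIs without that pool. DA held 101 gbb-2 UMIs within it. The order of AS and DA is therefore not resolved. SAA (599), URA (596), DB (592), URY (528), AVE (380), VD12 (330), SMD (297) and RME LR (293 CPM) followed. VA and VB, which contact ventral muscle, held 43.4 and 28.9 CPM. gbb-2 overlaps trx-3 and ZK180.7 on the opposite strand in WBcel235, and these 2 genes stood at 1.18 and 0 CPM in AS.

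Within the cholinergic cord neurons the classes thus fell into contrasting profiles. The DA, DB and AS classes, whose outputs go to dorsal muscle, held 592 to 1716 CPM of gbb-2 and 24.8 to 32.8 CPM of unc-49, although AS in the fixed library, with 21 cells, held 379 CPM of unc-49. The VA and VB classes, whose outputs go to ventral muscle, held 28.9 to 43.4 CPM of gbb-2 and 275 to 363 CPM of unc-49. In the 15.5 to 18.5 h library gbb-2 stood at 926 CPM in AS, 17.3 in VA and 0 in VB. In the 21 to 24 h libraries it stood at 2165 and 1610 CPM in AS, 62.8 and 45.0 in VA, and 38.9 and 37.9 in VB. In the pool with acr-2::GFP it was 1.96 in VA and 21.1 CPM in VB, below the DA, DB and AS values given above. AS was above VA and VB in all 4 libraries that held all 3. This pattern was noticed in the values and has no test of its own. DA and DB with at least 20 cells came from 1 library, which is 1 sort.

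The 2 GABA-B subunits were in different proportion in different classes. Over 62 classes with at least 20 UMIs of the pair, gbb-2 made up a median of 58.9% of the pair. The exact 95% binomial interval lay above 50% in 28 classes, below it in 22, and covered it in 12. Among cord neurons the share was 85.6% in AS, 67.9% in DA and 60.6% in DB. It was 22.2% in VA, 15.5% in VB, 5.8% in VB02 and 2.3% in VB01. By library VA ranged from 1.2% in the pool with acr-2::GFP to 27.1% in replicate 1 of 21 to 24 h. In VB02, 22 of the 30 gbb-2 UMIs came from replicate 2 of 21 to 24 h, and the share was 2.1% without that library and 10.4% without the pool with acr-2::GFP. VB01, with 3 gbb-2 UMIs, stood at 1.5% without that replicate 2. These shares without a library were computed after seeing the data. Of the GABAergic cord classes, DD had 7.1%, VD 46.7% and VD12 53.6%. In body wall muscle gbb-2 made up 73.9% outside the head and 92.2% in the head. Since capture can differ between the genes, the share compares classes and does not give the makeup of the receptor.

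**Figure D2:**
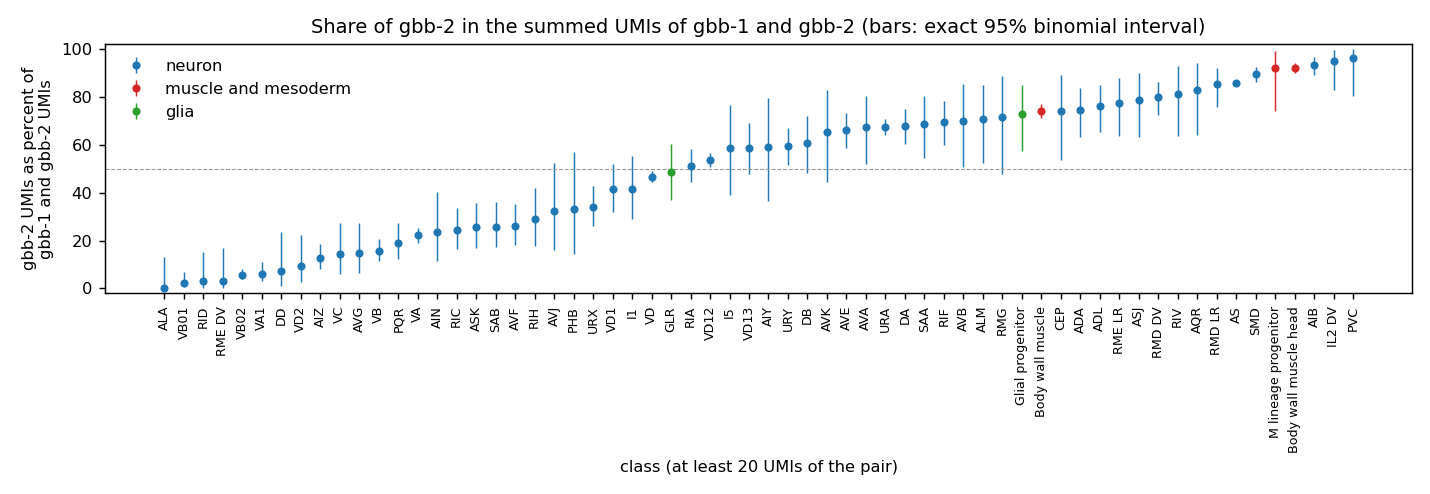
gbb-2 UMIs as a percent of the UMIs of gbb-1 and gbb-2 together in 62 classes, with exact 95% binomial intervals. The classes run from ALA (0 of 26 UMIs) and VB01 (2.3%) through VD (46.7%) and AS (85.6%) to IL2_DV (94.9%) and PVC (96.2%).

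Body wall muscle was compared with neurons in the 14 libraries with at least 50 cells of each. gab-1 and gbb-1 were lower in muscle, while unc-49 and gbb-2 did not pass. Cells of both sides came from the same libraries, so the library was a block in the quasi-likelihood test of edgeR, and p was adjusted by Benjamini-Hochberg over all genes tested. A gene was called when the adjusted p was under 0.05 and the log2 fold change was 1 or more in size. Of the 5 genes, 4 had enough UMIs to be tested and 2 were called, where 60.6% of all 6553 genes tested were called, so the count does not set these genes apart.

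gab-1 ranged over the libraries from 0 to 11.7 CPM (median 0) in muscle and from 1.46 to 261 CPM (median 54.8) in neurons. It was lower in muscle in 14 of 14 libraries, by a log2 fold change of -6.43 ± 0.45 (SE, adjusted p = 3.18e-10). gbb-1 ranged from 0 to 44.1 CPM (median 10.9) in muscle and from 20.9 to 178 CPM (median 51.7) in neurons. It too was lower in muscle in 14 of 14 libraries, with a log2 fold change of -2.05 ± 0.32 (adjusted p = 9.65e-06). unc-49 had medians of 163 CPM in muscle and 160 CPM in neurons and was higher in muscle in 7 of 14 libraries (log2 fold change 0.41 ± 0.43, adjusted p = 0.390). The neuronal side of unc-49 ran from 5.82 CPM in the sensory library to 778 CPM in the fixed library. gbb-2 had medians of 32.2 and 42.6 CPM (log2 fold change -0.42 ± 0.31, adjusted p = 0.224). exp-1 had too few UMIs for the test, with 7 in muscle and 414 in neurons.

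**Figure D3:**
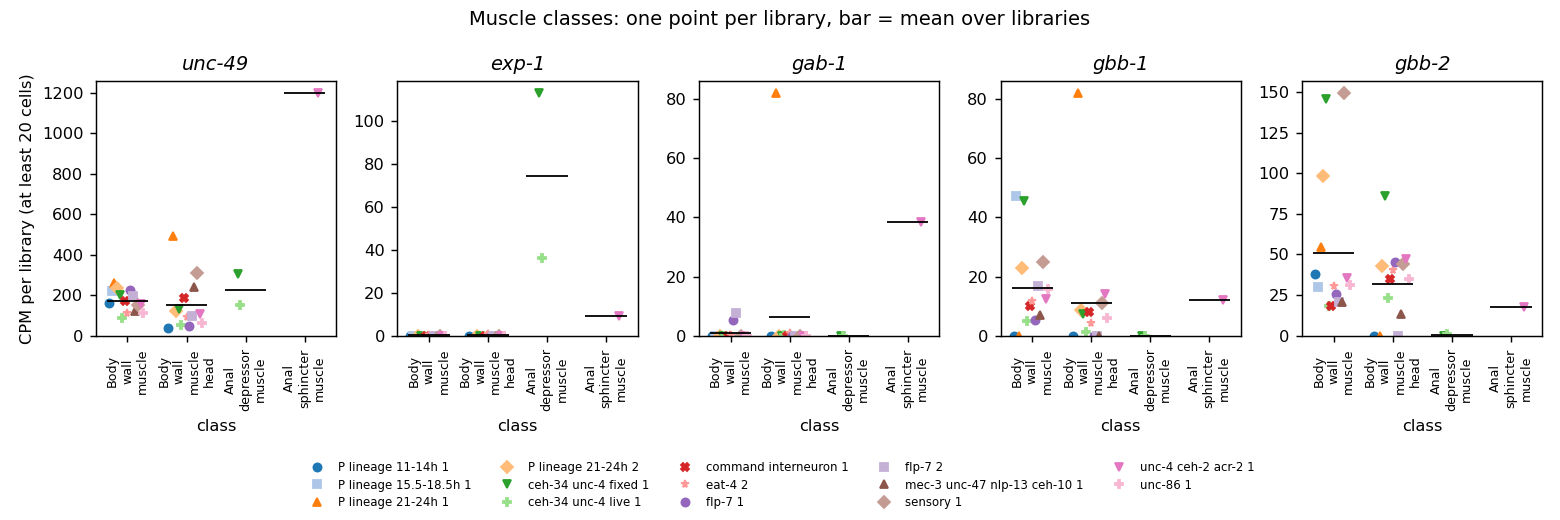
Level of the 5 genes in CPM (linear axes from 0) in 4 muscle classes, 1 point per library with at least 20 cells and a bar at the mean. exp-1 is at 35.9 and 113 CPM in the depressor libraries, and the isolated points of gab-1 and gbb-1 at 82.1 CPM in head muscle are 1 UMI each in 20 cells.

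A list of 28 other genes of GABA synthesis, transport, reception and signalling was counted in the same fit. Of 25 tested, 4 were higher and 18 lower in muscle, with a median log2 fold change of -2.16 against -0.40 over all genes. The channel subunit genes ggr-1 (-6.73 ± 0.38, adjusted p = 2.17e-11) and lgc-38 (-7.04 ± 0.46, adjusted p = 1.04e-10) and the synaptic adhesion gene nrx-1 (-6.25 ± 0.39, adjusted p = 5.37e-11) were lower. unc-47 (-7.58 ± 0.45, adjusted p = 7.61e-11) and unc-25 (-8.36 ± 0.87, adjusted p = 6.31e-08) were also lower in muscle, as was ggr-2 (-5.13 ± 0.36). In muscle, lgc-34, which encodes another ligand-gated channel subunit, was higher by 6.62 ± 0.40 (adjusted p = 4.30e-11).

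Cholinergic cord motor neurons (DA, DB, VA, VB and AS) were compared with the GABAergic ones (DD and VD) in 7 libraries with at least 20 cells of each. gab-1 and gbb-2 were higher on the cholinergic side. Of the 5 genes 4 were tested and 2 called, where 13.6% of 5167 genes were called. gab-1 stood at 0, 103, 139, 257, 270, 285 and 530 CPM on the cholinergic side and at 0 to 13.2 CPM on the GABAergic side. Only the cholinergic sample at 0, replicate 2 of the pan-neuronal sort with 28 cells, overlapped the GABAergic range. The log2 fold change was 5.29 ± 0.40 (adjusted p = 5.68e-08).

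gbb-2 stood at 66.0, 353, 370, 439, 462, 575 and 867 CPM on the cholinergic side and at 0, 0, 8.77, 14.3, 51.2, 152 and 164 CPM on the GABAergic side. It was higher on the cholinergic side in 7 of 7 libraries (log2 fold change 2.64 ± 0.39, adjusted p = 5.79e-05). Without AS, an alternative chosen after seeing the data, the log2 fold change turned to -1.59 (adjusted p = 0.00639). That alternative left 6 libraries, since the pool with unc-47::GFP then had too few cholinergic cells. With AS kept and that pool left out, the log2 fold change was 2.46 (adjusted p = 7.78e-05). gbb-1 was also higher in 7 of 7 libraries, 92.4 to 308 CPM against 29.7 to 178 CPM, but did not pass (0.82 ± 0.30, adjusted p = 0.0566). It passed with DESeq2 (adjusted p = 0.00586) and without replicate 1 (adjusted p = 0.0332) or replicate 2 (adjusted p = 0.0210) of the 21 to 24 h group.

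unc-49 was lower on the cholinergic side in 5 of 7 libraries, with medians of 161 and 317 CPM, and did not pass (-1.25 ± 0.47, adjusted p = 0.0670). It passed without the pool with acr-2::GFP (-1.52, adjusted p = 0.00535) and with no filter on low counts (-1.16, adjusted p = 0.00260). Of the 28 list genes 20 were tested, with 4 higher and 5 lower on the cholinergic side and a median of -0.20 against -0.13 over all genes. The channel subunit genes lgc-37 (4.03 ± 0.24, adjusted p = 2.77e-09) and ggr-1 (5.03 ± 0.46, adjusted p = 2.81e-07) were higher, as was the scaffold gene lin-2 (3.30 ± 0.31). unc-47 (-6.75 ± 0.54), unc-25 (-8.78 ± 0.81) and unc-30, which encodes the identity factor of DD and VD (-6.47 ± 0.58), were lower. Over all genes 282 were higher and 420 lower with the scaling used, against 342 and 333 with the size factors of DESeq2, which moved the median of all genes by 0.16. None of the 4 directions changed with that scaling, and gbb-1 then had an adjusted p of 0.0213 at a log2 fold change of 0.96.

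**Figure D4:**
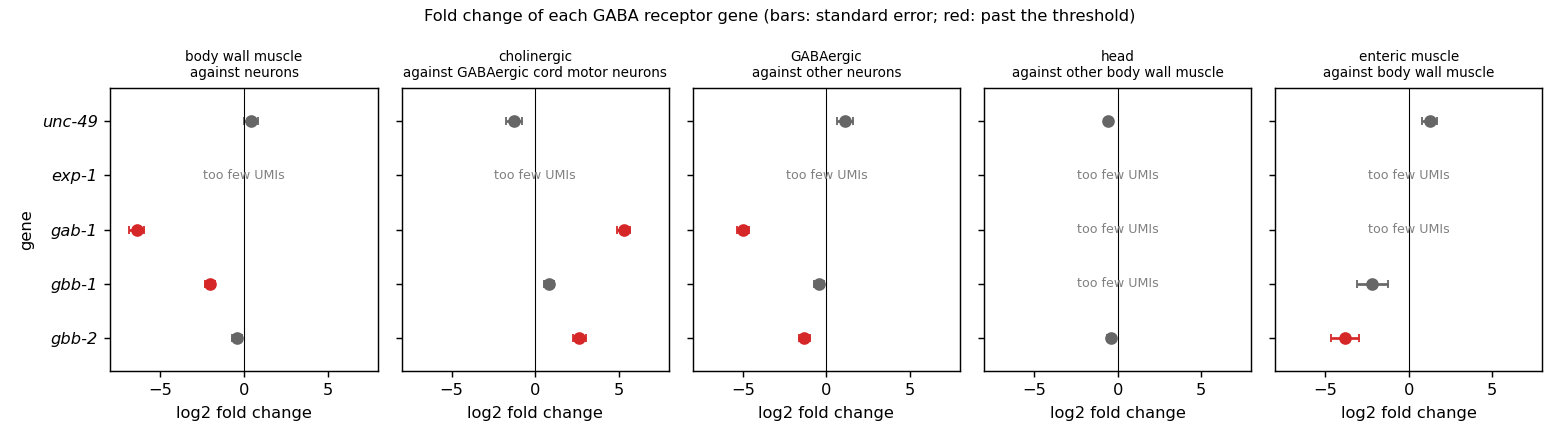
Log2 fold change (first side over second) of each gene in the 5 comparisons, with standard errors; red points had an adjusted p under 0.05 and a fold change of at least 1 on the log2 scale. gab-1 was lower in muscle and in GABAergic neurons and higher in cholinergic than GABAergic cord neurons, at -6.43, -4.99 and 5.29.

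All GABAergic neurons (DD, VD, RME, RIS and AVL) were compared with other neurons in 11 libraries. Within libraries, gab-1 and gbb-2 were lower in the GABAergic neurons. Pooled over all libraries, however, gbb-2 stood at 126 CPM both in GABAergic and in other neurons. The classes on the other side differ between sorts, and their part in the fold change was not tested. Of the 5 genes 4 were tested and 2 called, where 16.6% of 6403 genes were called. gab-1 ranged from 0 to 16.8 CPM (median 0) in GABAergic neurons and from 6.20 to 218 CPM (median 89.0) in the others, and was lower in 11 of 11 libraries (log2 fold change -4.99 ± 0.38, adjusted p = 1.23e-07). gbb-2 ranged from 0 to 164 CPM (median 23.8) and from 28.7 to 584 CPM (median 55.3), and was lower in 10 of 11 libraries (-1.32 ± 0.33, adjusted p = 0.00761). The call was lost without DD and VD (-0.14, adjusted p = 0.892) and with no library block (-1.23, adjusted p = 0.154). Of the GABAergic classes that remained in that first alternative, RME LR held 293 CPM of gbb-2, RIS 35.5, RME DV 3.41 and AVL 2.97 CPM.

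unc-49 was higher in GABAergic neurons in 10 of 11 libraries, with a median of 345 CPM (highest 515) against 118 CPM (highest 284). The difference did not pass (1.11 ± 0.49, adjusted p = 0.131). It passed with DESeq2 (1.11, adjusted p = 0.0227), without the live library of the ceh-34 and unc-4 pool (1.41, adjusted p = 0.0153) and without DD and VD (1.69, adjusted p = 0.0103). In that live library the 35 GABAergic cells held no unc-49 UMI. gbb-1 had medians of 44.9 and 35.8 CPM (-0.45 ± 0.31, adjusted p = 0.357). Of the 28 list genes 23 were tested, 7 higher and 4 lower, with a median of 0.00 against -0.19 over all genes. unc-25 (8.42 ± 0.49, adjusted p = 2.08e-08), unc-47 (6.29 ± 0.39, adjusted p = 2.77e-08), unc-46 (6.10 ± 0.45) and madd-4 (2.41 ± 0.30), which encodes a secreted organizer of synapses, were higher. The channel subunit genes lgc-38 (-4.12 ± 0.39) and ggr-1 (-5.06 ± 0.52) were lower.

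Head body wall muscle was compared with other body wall muscle in 13 libraries, since RME neurons act on head muscle and DD and VD on the body. None of the 2 genes tested was called, where 9.48% of 2067 genes were. unc-49 ranged from 34.8 to 493 CPM (median 109) in the head and from 85.9 to 260 CPM (median 160) elsewhere. It was lower in the head in 9 of 13 libraries, with an adjusted p of 0.0362 in edgeR but a log2 fold change of -0.55 ± 0.20, below the size required. gbb-2 did not pass either threshold (-0.37 ± 0.24, adjusted p = 0.236). Of these 2 genes 1 had an unadjusted p under 0.05, as did 1011 of the 2067 genes tested. DESeq2 called 0 of the 2 and 209 of the 2067. gbb-1, too sparse for the test, was lower in the head in 10 of 13 libraries (medians of 5.78 and 11.7 CPM). None of 12 tested list genes was called by edgeR. Of these, 3 had an adjusted p under 0.05 with a fold below the size required, the aminotransferase gene gta-1 (-0.95 ± 0.09, adjusted p = 7.85e-08), lin-2 (0.82 ± 0.23, adjusted p = 0.00748) and nlg-1 (-0.60 ± 0.20, adjusted p = 0.0212). The list's median log2 fold change was 0.10 against 0.01 over all genes, and unc-25 and unc-47 were not among those tested.

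Enteric muscle (anal depressor and sphincter) was compared with body wall muscle in 4 libraries with at least 20 cells of each. All 601 enteric cells of the live library of the ceh-34 and unc-4 pool were depressor, as were 156 of 160 in the fixed library. The sphincter cells came mainly from the pool with acr-2::GFP, which held 170 enteric cells. On the enteric side, muscle type and library therefore cannot be told apart. gbb-2 was lower in enteric muscle, and exp-1 UMIs were on the enteric side alone in these libraries. Of the 5 genes 3 were tested and 1 called, where 19.9% of 5695 genes were called. gbb-2 stood at 0, 0, 1.08 and 16.0 CPM in enteric muscle and at 22.7, 25.7, 36.9 and 89.9 CPM in body wall muscle. The values did not overlap, but the enteric side held only 9 gbb-2 UMIs against 566. The command interneuron library had only 23 enteric cells with 46877 UMIs, so the separation rests on few UMIs. The log2 fold change was -3.80 ± 0.84 (adjusted p = 0.0161). The call was lost without the live library of the ceh-34 and unc-4 pool (-3.42, adjusted p = 0.100) or the command interneuron library (-3.79, adjusted p = 0.0676).

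exp-1 stood at 0, 21.3, 35.9 and 112 CPM in enteric muscle, and no UMI was found among 18341524 UMIs of body wall muscle in these 4 libraries. Set against a floor of 3 UMIs over the body wall group, enteric muscle was at least 254-fold higher. This bound rested on the live library of the ceh-34 and unc-4 pool, which held 100 of the 148 enteric UMIs of exp-1, and was 99.0-fold without it. Without each of the other 3 libraries it was 186-fold to 242-fold. The bound takes in counting error only through the floor. exp-1 fell below the filter on low counts of the test. It was called in edgeR without that filter (adjusted p = 6.27e-16), without the command interneuron library (adjusted p = 0.0283), and with depressor muscle alone, a setting added after seeing the data (adjusted p = 0.0138). unc-49 was higher in enteric muscle in 4 of 4 libraries, 149 to 1088 CPM against 51.8 to 177 CPM, but did not pass (1.27 ± 0.45, adjusted p = 0.0876). The 1088 CPM was that of the pool with acr-2::GFP, which held most of the sphincter cells. gbb-1 was lower in 4 of 4 libraries and did not pass (-2.19 ± 0.93, adjusted p = 0.137).

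Of the 28 list genes 16 were tested against body wall muscle, 3 higher and 3 lower in enteric muscle, with a median of 0.28 against -0.03 over all genes. lgc-35, which encodes another excitatory GABA channel, was higher by 10.18 ± 0.69 (adjusted p = 6.43e-04). The netrin receptor gene unc-40 (2.00 ± 0.38) and oig-4 (1.33 ± 0.34), which encodes a secreted protein at muscle synapses, were also higher. The neuroligin gene nlg-1 (-5.23 ± 0.76), lgc-34 (-1.72 ± 0.36) and the GABA uptake transporter gene snf-11 (-1.55 ± 0.38) were lower.

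The P-lineage libraries give levels at successive ages, with no test of age. In VD neurons unc-49 stood at 201 CPM at 15.5 to 18.5 h and at 556 and 590 CPM in the libraries of 21 to 24 h. gbb-1 in VD stood at 29.5 and then 157 and 141 CPM, and gbb-2 at 41.3 and then 130 and 126 CPM. In VD12 unc-49 stood at 6.18 CPM and then 306 and 332 CPM. gab-1 in VB did not follow this order, with 496 and then 488 and 539 CPM. In each of these VD and VD12 examples both older libraries were above the younger one. With 1 library at the younger age, age and library cannot be told apart.

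Several neuron classes held more than 1 of the genes. With a counting interval wholly above 50 CPM as the criterion, 57 of 114 classes held none, 26 held 1, 15 held 2, 13 held 3 and 3 held 4. Classes of low depth can fail it at a high level, as AVD did for exp-1 at 79.0 CPM (5 UMIs, lower limit 25.7 CPM). AVE, SAB and SMD held 4. Of the 27 classes above this level for gbb-1 and the 27 for gbb-2, 13 were shared (48.1% of each). Of the 32 classes of unc-49 and 18 of gab-1, 10 were shared, 31.3% of the former and 55.6% of the latter.

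The genes most alike in pattern were found by Pearson's r of log2(CPM + 1) over 121 classes of neurons, muscle and other mesoderm, among 15275 genes, as a description without a test. Classes share libraries and differ in depth, which enters these values. unc-49 was closest to frm-3 (r = 0.62), a gene for a FERM-domain protein, then to hpd-1 (0.59), F25H5.2 (0.56), Y39F10A.1 (0.56) and Y49A3A.3 (0.53). gab-1 was closest to lgc-37 (0.75), another channel subunit gene, followed by Y119C1B.3, asp-9, glb-22 and 21ur-6778 (0.56 to 0.53). lgc-37 stood at 70.0 to 445 CPM in the 10 highest gab-1 classes, at 29.6 CPM in AS, at 4.39 CPM in VD and at 0 in DD. The nearest to gbb-1 were twk-13 (0.63), C03H5.6 (0.61), madd-4 (0.61), K11H12.7 (0.60) and C06E7.2 (0.59). gbb-2 was closest to gbb-1 itself (0.58), then C06E7.2 (0.51), K11H12.7 (0.50), zyx-1 (0.48) and C42C1.13 (0.47). exp-1, the sparsest, had no value above 0.47 (sup-1), with F26E4.3, M02F4.9, T19B4.3 and acc-4 at 0.42 to 0.39.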

How the data were processed

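The deposited file was a matrix of UMI counts, in whole numbers for each cell and gene, with the authors' annotation of experiment, tissue and class for each cell. Cells were sorted and captured on the 10x platform, per the labels' protocols, and Cell Ranger 6.0.0 is named in the submitters' processing notes. Cell filters, class assignment, background correction and genome build were not given in the sources used here. Of 87588685 stored entries 3505163 held 0. No doublet caller was run. Left out were 94 cells of unknown tissue and 898 whose class carries a question mark. Cells were matched to libraries by experiment name. The 11 to 14 h P-lineage library was matched as the only name left, a less certain match.

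Counts were summed per class and library, with exact 95% Poisson intervals for levels. Comparisons used sums per library and side in edgeR 4.0.16 (quasi-likelihood test, TMM, filterByExpr, library as a block because both sides come from the same library) in R 4.3.3 with limma 3.58.1. The 2 sides of a library are paired by construction, so no check of replicate numbers was needed. The threshold was a Benjamini-Hochberg adjusted p under 0.05 with a log2 fold change of 1 or more in size. Each comparison was tested on simulated data first. Alternatives were DESeq2 1.42.0, its size factors, no filter on low counts, no block, cells with at least 500 UMIs, other class sets and each library left out. Nothing says that libraries of 1 group came from separate cultures, so p-values measure only the spread between libraries. Sums and figures used Python 3.11.15, numpy 2.4.6, scipy 1.17.1, pandas 2.3.3 and matplotlib 3.10.9. Named were the 5 genes in every comparison, their 10 highest neuron classes (at least 50 cells and 5 UMIs), every body muscle class, the 5 most similar genes, and up to 6 called genes of the 28-gene list by smallest p beside unc-25 and unc-47. The members and lists were chosen with earlier results of these data known.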

Additional observations from a re-analysis of the deposited data

Results flagged for a closer look

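A signal of both GABA-B subunits appeared outside the neurons and muscles that the comparisons used. GLR cells, 259 cells annotated with the glia, held 289.3 CPM of gbb-1 (39 UMIs) and 274.4 CPM of gbb-2 (37 UMIs), above the 0 and 0.321 CPM of coelomocytes. All glia together, GLR cells included, stood at 7.83 and 9.63 CPM. In the 1 library with at least 20 GLR cells the levels were 320 and 262 CPM. That library was the pool of 4 strains with unc-47::GFP. GLR cells also held 1261 CPM of the summed neuronal markers and 289 CPM of the GABAergic markers, and the part of these in the result was not tested.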

How the results depend on the processing

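Of the fold changes recomputed under the alternatives, 244 kept their direction and side of the threshold, 8 came to pass it, 4 no longer passed and 2 reversed. The reversed values were unc-49 in muscle against neurons with no replicate block (-0.043, adjusted p = 0.929) and gbb-2 in cholinergic against GABAergic cord neurons without AS (-1.59). The cause was not tested. Without the replicate block, which here is the library shared by the paired sides, 3937, 486, 858, 196 and 892 genes were called, against 3974, 702, 1066, 196 and 1134 with it, in the order muscle against neurons, cholinergic against GABAergic, GABAergic against other neurons, head muscle and enteric muscle. Of member calls that change ended only that of gbb-2 in GABAergic neurons. With no filter on low counts the counts were 10060, 1806, 3277, 946 and 2023, over more genes tested. Leaving out 1 library gave 453 to 762 genes for cholinergic against GABAergic neurons and 540 to 1727 for enteric muscle, the lowest without replicate 2 of the 21 to 24 h group (456 without replicate 1) and without the live library of the ceh-34 and unc-4 pool. Enteric muscle gave 711 without the fixed library, 599 without the command interneuron library and 1727 without the pool with acr-2::GFP. Head muscle gave 309 genes in libraries with at least 50 cells of each, an alternative added after seeing the data, and 325 with cells of at least 500 UMIs. The size factors of DESeq2 moved the median log2 fold change of all genes by -0.25, 0.16 and -0.11 in the muscle, cord and enteric comparisons. Of 210 levels 200 stayed within the spread and 10 moved, 4 of them of exp-1 in classes with few UMIs. The spread was the SD over libraries, or the wider arm of the counting interval where no SD existed. It is wide for some classes, so large moves could stay within it. One such level was gbb-2 in AS, at 1716 CPM pooled and 1130 CPM as a mean over libraries (SD 755). For exp-1, 65 of 114 neuron classes held no UMI, and at this depth absence cannot be told from a low level in them.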

Other observations

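The ceh-34 and unc-4 pool was profiled both live and after methanol fixation, 1 library each, so no test is possible. In 14 of 14 pairs of class and gene with at least 20 UMIs over both libraries, in 10 classes, the level was higher in the fixed library. unc-49 in MC stood at 1486 CPM fixed and 380 CPM live, and in head body wall muscle at 132 and 50.2 CPM. exp-1 in anal depressor muscle stood at 113 and 35.9 CPM, and gbb-2 in AS at 1893 and 636 CPM. Over all genes with enough UMIs the median log2 ratio of fixed to live was 0.29 in MC, 0.28 in head muscle, 0.38 in depressor muscle and -0.28 in AS. Coelomocytes, which serve as background here, also held more unc-49 in the fixed library, 16.8 against 9.94 CPM. That log2 ratio of 0.76 was close to the median of 0.74 over all genes in coelomocytes. In MI the log2 ratio of unc-49 was 1.26 against a median of 0.82.

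DA1, a single cord neuron class below the minimum of 50 cells, held 834 CPM of gab-1 (19 UMIs in 32 cells, interval 502 to 1303). This gab-1 interval overlapped that of VA1, the highest gab-1 class with enough cells. DA1 also held 790 CPM of gbb-2 (18 UMIs).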
